A study of Drosophila melanogaster with 4 samples.

Results

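The array titled rescue control was set against the array titled WT control, 2 of the 4 arrays of a study of TORC in fasted Drosophila melanogaster. Each was hybridised with RNA from a sample labelled as heads of males that had gone 24 h without food. The other arrays came from a TORC mutant and from a TORC neuronal rescue, with the same label of sex, tissue and fasting. There was 1 array for each group, so no replicate error existed, and every value below is a difference in size between single arrays with no test and no p-value. The labels name the rescue control without giving its genotype, its strain background, a driver or a transgene, and they give no number or age of flies for any group. Members were all probe sets with 1 gene symbol, 13646 of the 18952 probe sets on the array, for 11981 genes. Signals below 14 were raised to 14, and the log2 ratio was that of the rescue control over the WT control. The 6478 probe sets with a signal of 50 or more on both arrays (47.5%, for 6092 genes) were described apart from those below 14 on 1 array, for which a fold is a lower bound against 14 and is written as "at least".

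TORC is the older name of Crtc, a coactivator that is held in the cytoplasm when phosphorylated by salt-inducible kinases and enters the nucleus after dephosphorylation by calcineurin, where it binds the transcription factor CREB. In flies it has been linked to the response to starvation and to energy stores. A fly head holds brain, compound eyes, muscle, cuticle and the head fat body, a tissue that stores lipid and glycogen, secretes carrier and storage proteins into the blood and makes antimicrobial peptides when the Toll or Imd pathway is active.

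Crtc itself, on chromosome arm 3L, measured 6.7 in the rescue control, against 203 in the WT control, at least 14.5-fold lower. The other arrays had 3.8 in the TORC mutant and 37.4 in the neuronal rescue. The array titled rescue control thus lay below 14 for this gene, as the mutant array did. Crtc has 1 probe set with 1 symbol, and its place in the gene relative to any mutation is not given in the labels.

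The arrays differed in overall measures as well as in single genes. The median signal over all probe sets that were not controls was 20.6 in the rescue control and 36.6 in the WT control, and 54.8% of them in the rescue control, against 63.1% in the WT control, reached 14. Bacillus transcripts, which are added to RNA before labelling, had a geometric mean signal of 351 over 12 probe sets in the rescue control and 77.3 in the WT control, 4.54-fold apart. The hybridisation controls, added later, had a ratio of 0.967. The ratio of 3′ to 5′ signal, which rises as RNA is broken, was 3.77 for Act5C, 1.52 for GAPDH and 3.44 for eIF-4a in the rescue control, against 3.86, 2.02 and 4.03 in the WT control. The part of these differences in the results below was not tested.

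Among the 6478 probe sets at 50 or more on both arrays, 150 were 2-fold or more higher in the rescue control (2.32%, 147 genes) and 131 were 2-fold or more lower (2.02%, 130 genes). The median log2 ratio was 0.08, with quartiles of -0.17 and 0.30, and 59.0% of the ratios lay above 0. The highest ratio was 3.49 and the lowest -4.91. Absence was far less even. In the rescue control 590 probe sets lay below 14 that reached 50 in the WT control, 4.32% of the 13646, against 13 the other way, 0.0953%. A further 2758 lay below 14 on both arrays, 2205 lay at 14 or more on both but short of 50 on at least 1, and 333 and 1269 were between 14 and 50 on the rescue control or the WT control alone. In the dim group of 2205, 104 were 2-fold or more higher and 289 lower, with a median of -0.14.

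**Figure D1:**
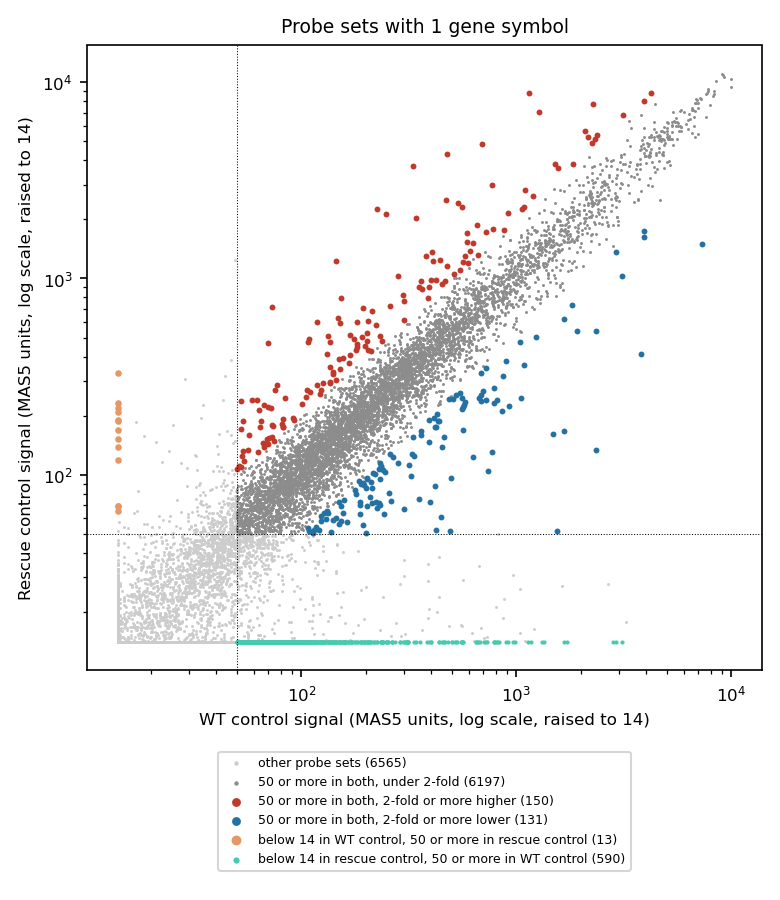
Signals of the rescue control (vertical axis) and the WT control (horizontal axis), in MAS5 units on log scales with values below 14 drawn at 14. Each point is 1 of 13646 probe sets with 1 gene symbol, and dotted lines mark 50. The band of 590 points along the lower edge is below 14 in the rescue control, while 13 points stand at the left edge.

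A technical yardstick came from genes with a pair of bright probe sets. Over 252 such genes the robust SD of the log2 ratio between probe sets was 0.31, and 25 genes had probe sets that differed by 1 or more. This spread holds probe and hybridisation differences but not the variation from fly to fly or from one extraction to the next. The robust SD of all log2 ratios was 0.36 for probe sets with a geometric mean signal of 50 to 100 and 0.30 for those at 1000 or more. In the brightest class 31 probe sets were 2-fold or more higher and 10 lower, and in the dimmest 14 were higher and 20 lower.

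The 15 highest ratios among bright probe sets held genes of the fat body, of immunity and of detoxification. Gnmt, the glycine N-methyltransferase that uses up S-adenosylmethionine, led them with 3727 in the rescue control and 331 in the WT control, 11.2-fold higher. Lsp2, a hexamerin storage protein of the fat body, had 8793 in the rescue control and 1139 in the WT control, 7.72-fold. CCHa2, a peptide hormone that fat body and gut make in response to food, had 2138 in the rescue control and 248 in the WT control, 8.61-fold. In the other arrays Gnmt had 3839.7 in the TORC mutant and 1734 in the neuronal rescue. Lsp2 had 8765 in the mutant and 5511.5 in the neuronal rescue, and CCHa2 had 1907 and 1628 in the same arrays. The WT control was thus the lowest of the 4 arrays for each. A choice by the ratio to the WT control favours probe sets on which that array stands apart, here and among the 15 lowest.

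Immune effectors and inhibitors of proteases made up another share of the 15. DptB, an antibacterial diptericin under the Imd pathway, had 4293 in the rescue control and 474.5 in the WT control, 9.05-fold higher, with 1492 in the TORC mutant and 1199 in the neuronal rescue. Mtk, the antifungal peptide metchnikowin, had 7099 in the rescue control and 1267 in the WT control, 5.60-fold. PGRP-SC2, an amidase that breaks down peptidoglycan and so limits the Imd response, had 798 in the rescue control and 153 in the WT control, 5.22-fold. The rescue control was the highest of the 4 arrays for these 3 genes, and for PGRP-SC2 the mutant, at 164, lay close to the WT control. Spn88Eb encodes a serpin, an inhibitor of serine proteases, and had 2255 in the rescue control and 226 in the WT control, 9.99-fold. CG16704 and CG16713, which encode small proteins with a Kunitz inhibitor domain, were 7.06-fold and 4.58-fold higher.

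Detoxification enzymes took 3 of the remaining places. The UDP-glycosyltransferase gene Ugt35C1 had 712 in the rescue control and 72.7 in the WT control, 9.79-fold higher. Cyp6a2, a cytochrome P450 known for the metabolism of insecticides, had 1229.9 in the rescue control and 146 in the WT control, 8.45-fold. Cyp12a4, a mitochondrial P450, had 599.5 in the rescue control against 118 in the WT control, 5.06-fold. For these enzymes the WT control was again the lowest of the 4 arrays. CG6912, CG5773 and CG34136 completed the 15, at 6.69-fold, 5.99-fold and 5.32-fold.

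The 15 lowest ratios were more mixed. Yp3, a yolk protein, had 133 in the rescue control and 2338.5 in the WT control, 17.6-fold lower. Cyp4g1, the P450 with which oenocytes make the hydrocarbons that waterproof the cuticle, had 412 in the rescue control and 3796 in the WT control, 9.22-fold lower, with 50.7 in the TORC mutant and 4984.5 in the neuronal rescue. epsilonTry, a gut trypsin, had 51.5 in the rescue control and 493 in the WT control, 9.57-fold lower. The gut lipase gene mag had 104.5 in the rescue control against 736 in the WT control, 7.04-fold lower. None of these is a marker of brain or eye, but the 15 also held IA-2, a protein of dense core vesicles, and Syp, both given below. path, an amino acid transporter, had 167 in the rescue control and 1669.8 in the WT control, 9.99-fold lower. The gene miple1, for a secreted protein related to midkine, had 161 in the rescue control against 1482 in the WT control, 9.19-fold lower. miple1 was nearly level in the other arrays, at 167 in the TORC mutant and 167 in the neuronal rescue, so that the WT control alone stood high.

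Other genes among the 15 lowest were Drsl4, a relative of drosomycin (8.13-fold lower), the peroxiredoxin gene Prx6c (5.89-fold), the aspartyl protease gene Bace (5.18-fold) and CG3699 (5.15-fold). For 5 of the 15 a further probe set of the same gene was on the array, and those did not give equal ratios. The lowest of all, CG40485, had 51.3 in the rescue control and 1538.5 in the WT control, 30.0-fold lower, whereas its other probe set had 946 in the rescue control against 1625 in the WT control, a log2 ratio of -0.78. Syp, an RNA-binding protein, was 7.30-fold lower by 1 probe set and had a log2 ratio of -0.23 by the other. Mf, a thick filament protein of muscle, had 1493 in the rescue control and 7333 in the WT control by 1 probe set, 4.91-fold lower, and 5249 in the rescue control against 3914 in the WT control by the other, a log2 ratio of 0.42. IA-2, a protein of dense core vesicles, was 5.50-fold and 2.23-fold lower by its bright probe sets, and the third lay below 14 on both arrays. CG40486 was 4.82-fold lower by 1 probe set, with the other below 14 on both arrays. Over all bright probe sets, 21 genes with several bright probe sets had 1 at 2-fold or more lower, and for 8 of them another probe set lay on the other side of 0. Among 9 such genes with 1 probe set 2-fold or more higher, this held for 2.

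**Figure D2:**
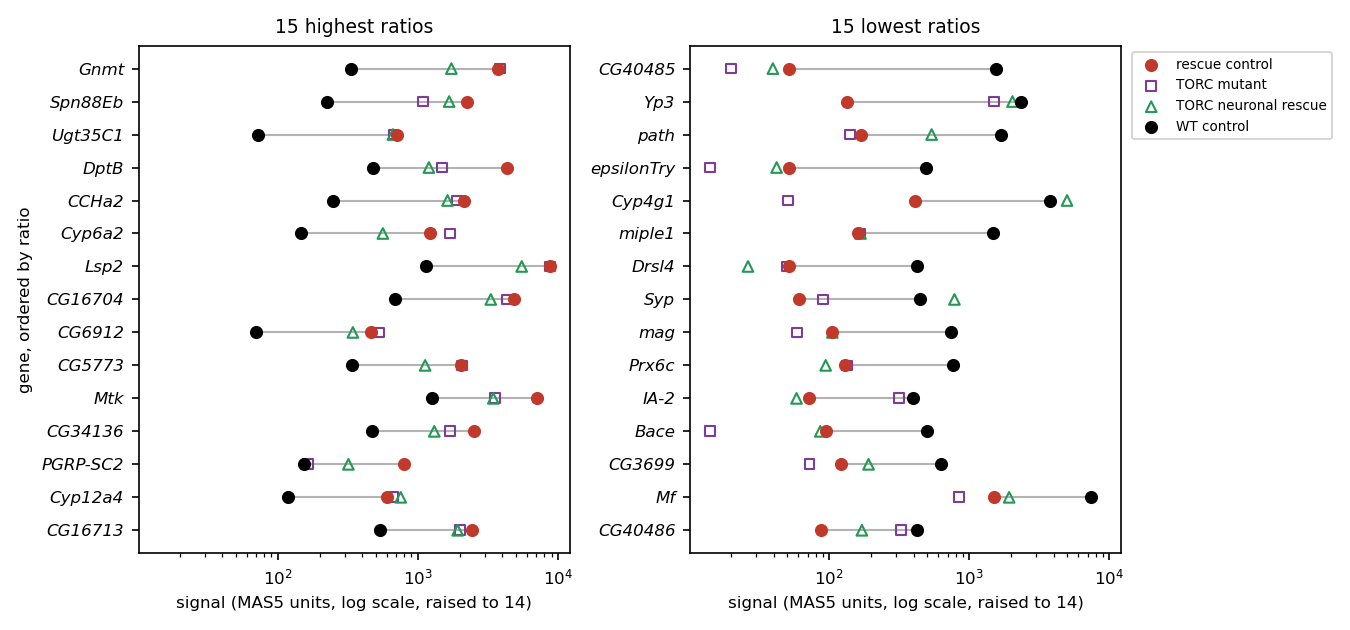
Signals (MAS5 units, log scale, values below 14 drawn at 14) of the 15 probe sets with the highest and the 15 with the lowest ratio among those at 50 or more on both arrays. Filled red circles are the rescue control and filled black circles the WT control, joined by a line, and open symbols are the TORC mutant and the neuronal rescue. The side of the rescue control on which the WT control lies was fixed by the choice of these probe sets. That choice also favours an extreme WT control. In the left panel the TORC mutant and the neuronal rescue lie above the WT control on every line as well. In the right panel the neuronal rescue lies above the WT control for Cyp4g1 and Syp.

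Antimicrobial peptide genes were higher in the rescue control for the most part. Of 18 measured, 12 were bright on both arrays, 6 of them 2-fold or more higher and 2 lower, with a median log2 ratio of 0.90 beside 0.08 for all bright probe sets. Here and in the lists below, counts of 0 or 1 past 2-fold lie near the shares of 2.32% and 2.02% over all bright probe sets and say nothing particular to a list. Beside DptB and Mtk stood Drs, the antifungal peptide drosomycin of the Toll pathway, with 7761 in the rescue control and 2281 in the WT control, 3.40-fold higher. AttD, BomT2 and BomBc3 were the other higher members, at 3.17-fold, 2.35-fold and 2.03-fold, named after their values were seen. The lower members were Drsl4 and Drsl5. Drsl5, named after its value was seen, had 169 in the rescue control and 564 in the WT control, 3.35-fold lower. Drs and its relatives thus lay on both sides of 0. BomS2 and Def, at log2 ratios of 0.31 and 0.27, were short of 2-fold. CecB, a cecropin gene chosen after its value was seen, had 146 in the rescue control and 21.1 in the WT control, and 38.6 and 33.5 in the mutant and the neuronal rescue.

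The genes that sense bacteria and carry the signal showed fewer differences of this size. Of 28 probe sets for 25 genes, 24 were bright on both arrays, 2 were 2-fold or more higher and 0 lower, and the median was 0.31. The higher ones were PGRP-SC2 and PGRP-SB1, PGRP-SB1 being another secreted amidase, with 3004 in the rescue control and 769 in the WT control, 3.91-fold. Rel, the NF-kappaB factor of the Imd pathway, had 1251.5 in the rescue control against 629 in the WT control, a log2 ratio of 0.99, just short of the threshold. The NF-kappaB factor of the Toll pathway, dl, had log2 ratios of 0.92 and 0.80 by its 2 bright probe sets. Markers of blood cells, which also take part in immunity, gave 0 of 7 bright probe sets at 2-fold in either direction and a median of 0.39, with PPO2 at 0.63 and Hml at -0.21. In the JAK-STAT list, Stat92E had 1644 in the rescue control and 866 in the WT control, a log2 ratio of 0.92. TotC, a secreted stress peptide chosen after its value was seen, had 308 in the rescue control and 28.8 in the WT control, with 538 in the TORC mutant and 18.8 in the neuronal rescue. For TotC the rescue control and the mutant were high, and the other arrays were low.

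The list of storage and carrier genes of the fat body, which also holds the enzyme genes Gnmt and Sardh, was higher as a group as well. Of 11 bright probe sets 6 were 2-fold or more higher and 1 was lower, with a median of 1.09. Beside Gnmt and Lsp2, Obp99b, of the odorant-binding protein family, had 902 in the rescue control and 352 in the WT control, 2.56-fold higher. The secreted protein gene fit had 151 in the rescue control and 69.1 in the WT control, 2.19-fold. Tsf1, the iron carrier transferrin, was 2.19-fold and 2.13-fold higher by its 2 bright probe sets, and was named after its values were seen. Sardh, which turns the sarcosine made by Gnmt back into glycine, was the lower member, at 155 in the rescue control and 329.8 in the WT control, 2.13-fold lower. Fer1HCH, Fer2LCH and Obp44a had log2 ratios of 0.41, 0.27 and 0.15. With the brightest probe set of each gene alone, the median of this list was 0.77. Obp99a went the other way, below 14 at 4.2 in the rescue control and at 129 in the WT control, at least 9.19-fold lower.

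The methionine and one-carbon list shares Gnmt and Sardh with the fat body list, so the lists are not separate. All 12 of its probe sets were bright, 2 were higher, 1 (Sardh) was lower and the median was 0.17. The higher member beside Gnmt was Ahcy, which hydrolyses the S-adenosylhomocysteine that methyltransferases such as Gnmt leave behind, with 1701 in the rescue control and 591 in the WT control, 2.88-fold. Sam-S, which makes S-adenosylmethionine, had 2393 in the rescue control against 2259.8 in the WT control, a log2 ratio of 0.08. Among 23 bright probe sets for lipid storage, synthesis and breakdown 1 was higher and 0 lower, with a median of 0.24. That one was Lsd-1, a perilipin on the surface of lipid droplets, with 1369.6 in the rescue control and 406 in the WT control, 3.37-fold higher, and 1658 in the TORC mutant and 616.5 in the neuronal rescue. Lpin, which acts in triglyceride synthesis, had a log2 ratio of 0.81. Agpat1 and whd, the carnitine palmitoyltransferase of fatty acid oxidation, had -0.86 and -0.78. Below 14 in the rescue control were FASN2 and FASN3, which encode fatty acid synthases, at 3.1 and 12.3, against 52.0 and 118 in the WT control.

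For gluconeogenesis, glycogen and trehalose, 0 of 8 bright probe sets were 2-fold apart, with log2 ratios between -0.31 and 0.20. Pepck1, the phosphoenolpyruvate carboxykinase with the brighter signal, had 8263 in the rescue control and 7207 in the WT control. Pepck2 was just too dim in the WT control to be counted. It had 1249 in the rescue control and 49.0 in the WT control, 25.5-fold higher, with 3226 in the TORC mutant and 435 in the neuronal rescue, and it was chosen after its value was seen. In glycolysis 0 of 14 were 2-fold apart, and the log2 ratios ran from -0.43 to 0.33. Of the maltases, which split dietary sugars, Mal-A1 had 236 in the rescue control and 576 in the WT control, 2.44-fold lower, the 1 of 5 bright probe sets past 2-fold. Mal-B2 lay on the other side, with a log2 ratio of 0.84. The glucosidase gene tobi, a target of insulin signalling chosen after its value was seen, had 17.0 in the rescue control and 549.8 in the WT control. Of 12 bright probe sets for insulin, adipokinetic hormone and FOXO, Akt alone was past 2-fold, at 109 in the rescue control and 236 in the WT control, 2.16-fold lower.

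Detoxification families did not move as blocks. Of 47 bright probe sets for P450 genes, 7 were 2-fold or more higher and 5 were lower, and the median was -0.09. The higher ones were Cyp6a2 and Cyp12a4, and, named after their values were seen, Cyp6a8, Cyp6a17, Cyp4e3, Cyp4ac3 and Cyp9h1, at 2.13-fold to 3.06-fold. The lower ones were Cyp4g1, Cyp4p1 (4.30-fold) and, named after their values were seen, Cyp6a23, Cyp12c1 and Cyp4d20, at 2.34-fold to 3.29-fold. Members of the Cyp6a subfamily therefore lay in both groups, with Cyp6a8 at 515 in the rescue control and 169 in the WT control and Cyp6a23 at 97.9 in the rescue control against 322 in the WT control. Of 25 bright glutathione S-transferase probe sets 2 were higher and 0 lower, around a median of 0.14. GstE7 had 477 in the rescue control and 108 in the WT control, 4.42-fold. GstS1 had 3841 in the rescue control against 1515 in the WT control, 2.54-fold, the highest of the 4 arrays. Of 12 bright UDP-glycosyltransferase probe sets 2 were higher, Ugt35C1 and Ugt36E1 (2.12-fold), and 0 lower, with a median of 0.08.

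Stress genes were split as well. Hsp68, an inducible chaperone of the Hsp70 family, had 170.3 in the rescue control and 52.5 in the WT control, 3.24-fold higher. The small heat shock protein gene Hsp26 had 345 in the rescue control against 151 in the WT control, 2.28-fold. They were 2 of 15 bright probe sets for chaperones, with 0 lower and a median of 0.24, and the constitutive Hsc70-4 had a log2 ratio of 0.24. Of 15 bright probe sets for antioxidant enzymes and their regulators 0 were higher and 3 lower. These were Prx6c, cnc, the homologue of Nrf2, with 268 in the rescue control and 702 in the WT control, a log2 ratio of -1.39, and 1 of the 2 bright probe sets of Sod3, 2.28-fold lower, the other having a log2 ratio of -0.59. Men, the malic enzyme that makes NADPH, had 0.93, and Cat, the catalase gene, had 0.28.

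The proteasome list was narrow and shifted as a whole. All 26 probe sets were bright, and all 26 log2 ratios lay above 0, between 0.05 and 0.76, with a median of 0.45 and 0 at 2-fold. For comparison, 59.0% of all bright probe sets lay above 0. Prosalpha6 had 431 in the rescue control and 254 in the WT control. Prosbeta2, of the same core particle, had 854 in the rescue control against 516 in the WT control. The deubiquitinase Rpn11 of the regulatory particle had 563 in the rescue control against 346 in the WT control. The median was 0.38 after centring on all bright probe sets and 0.43 after quantile normalization. Bright cytosolic ribosomal protein genes had a median of 0.15 over 35 probe sets with 0 at 2-fold, and mitochondrial ribosomal protein genes had -0.05 over 71 with mRpS31 2.13-fold lower. Bright probe sets for oxidative phosphorylation had 0.06 over 58 and those for the vacuolar ATPase 0.12 over 19, with 0 at 2-fold in both. Autophagy genes had 0.21 over 18 with 0 at 2-fold, and Atg3 and Atg1 had 0.89 and 0.48. Those medians near 0 changed sign with some scalings, as given in the closing section.

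Bright probe sets of genes typical of the head mostly lay within 2-fold, with medians below that of all bright probe sets, 0.08. The photoreceptor ones had a median of -0.03 over 31, the neuronal ones -0.17 over 33 and the glial ones -0.09 over 14. Ratios below 0 were found for 17, 20 and 9 of them in turn, whereas 59.0% of all bright probe sets lay above 0. The neuronal marker elav had 185 in the rescue control and 291 in the WT control. The glial marker repo had 357 in the rescue control against 455 in the WT control. The photoreceptor protein chp had 4717 in the rescue control against 3371.5 in the WT control. None of these was 2-fold apart. Past 2-fold were Cpr72Ec, a protein of the corneal lens, 2.22-fold higher, VGlut, the vesicular glutamate transporter, 2.30-fold lower, and nrv2, a sodium pump subunit of glia, 2.14-fold lower. eys, which builds the space between photoreceptor membranes, lay at 13.1 in the rescue control and 83.9 in the WT control by 1 of its 4 probe sets, at least 5.99-fold lower, with 89.8 in the TORC mutant and 16.3 in the neuronal rescue. By its brightest probe set eys was level, with 678 in the rescue control and 693 in the WT control. Of 16 bright eye pigment probe sets 0 were 2-fold apart, and bw and se had log2 ratios of -0.91 and -0.78.

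Clock genes went lower more often than higher. Of 14 bright probe sets 0 were 2-fold or more higher and 3 lower, with a median of -0.26. Pdp1, an activator of Clk, had 241 in the rescue control and 815 in the WT control, 3.38-fold lower, and stood at 251 and 233.5 in the TORC mutant and the neuronal rescue, so that the WT control alone was high. Pdf, the neuropeptide of the clock neurons, had 187 in the rescue control and 435 in the WT control, 2.32-fold lower. The clock gene nocte had 189.7 in the rescue control against 393 in the WT control, 2.07-fold lower. tim had a log2 ratio of -0.68, and per had -0.28. The labels give no hour of collection, and its part in these ratios was not tested. Among 21 bright neuropeptide probe sets CCHa2 was higher and Pdf lower, and the other 19 lay within 2-fold, with Nplp4 at 0.94 and Mip at 0.53. Of 20 bright odorant-binding protein probe sets 1 was higher, Obp99b, and 4 were lower. The lower ones were Obp19b (3.21-fold), Obp56g, with 1024 in the rescue control and 3107 in the WT control (3.03-fold), Os-C (2.69-fold) and Obp83b (2.68-fold).

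In the CREB pathway, Crtc apart, 13 probe sets were bright on both arrays, with log2 ratios between -0.39 and 0.66 and a median of -0.14. None was 2-fold apart, beside 2.32% higher and 2.02% lower over all bright probe sets, a share at which few or none of 13 would be. Another 2 probe sets of the list lay below 14 in the rescue control and between 14 and 50 in the WT control. The catalytic calcineurin genes Pp2B-14D and CanA1 had 0.66 and 0.64, the kinase genes Sik3 and Sik2 had -0.39 and -0.36, and the adenylate cyclase gene rut had -0.14. CrebB, the fly CREB gene, had 53.4 in the rescue control and 46.8 in the WT control by the brighter probe set, short of 50 in the WT control. Of 4 bright probe sets for transcription factors that follow neuronal activity 0 were 2-fold apart, with kay, the Fos homologue, at -0.47.

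**Figure D3:**
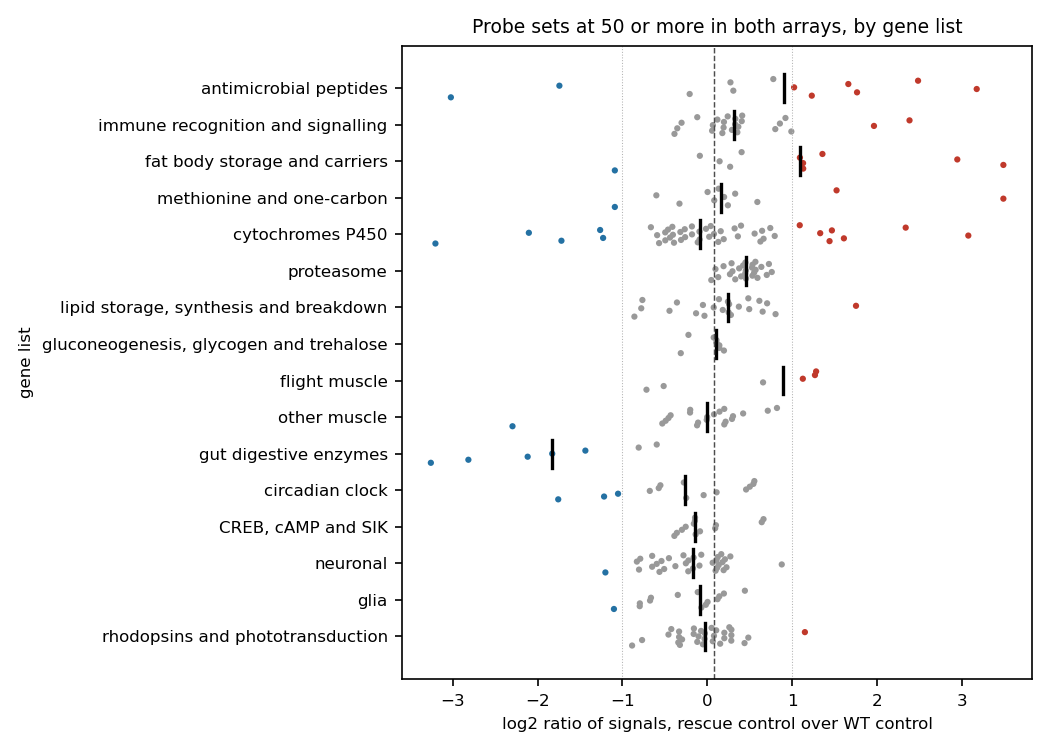
Log2 ratio of the rescue control over the WT control for each probe set at 50 or more on both arrays, by gene list. Black bars are list medians, the dashed line is the median of all 6478 such probe sets, and red and blue points are 2-fold or more higher and lower. The bars stand at 1.09 for fat body storage, 0.90 for antimicrobial peptides and 0.45 for the proteasome, and at -1.83 for gut digestive enzymes.

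The 590 probe sets below 14 in the rescue control and at 50 or more in the WT control held most of the male reproductive tract genes on the lists. Ebp, an ejaculatory bulb protein, had 6.1 in the rescue control and 3098 in the WT control, at least 221-fold lower. EbpII had 6.1 in the rescue control against 2801 in the WT control, at least 200.1-fold. The seminal fluid gene Acp98AB had 4.2 in the rescue control and 2911 in the WT control, at least 208-fold lower. Mst57Da, Acp53C14b and Acp53C14a of the accessory gland were at least 119-fold, 95.6-fold and 94.1-fold lower. The other largest bounds belonged to CG17376, at least 123-fold and 81.0-fold lower by 2 probe sets, to CG10252, at least 83.2-fold, and to Pen, an importin alpha, at least 70.7-fold. Of 22 accessory gland and ejaculatory tract probe sets, 17 were in this class, which held 4.32% of all probe sets with 1 symbol. All 22 reached 14 in the WT control against 4 in the rescue control. EbpIII was the 1 that was bright on both arrays, with 7644 in the rescue control and 7925 in the WT control.

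Testis genes behaved alike. None of 26 was bright in the rescue control, 13 lay below 14 there and at 50 or more in the WT control, and the median signal was 9.0 in the rescue control and 257 in the WT control. Their summed signal was 229 in the rescue control and 9189 in the WT control. The testis gene ocn, Mst87F, a structural protein of sperm, and S-Lap7, a leucyl aminopeptidase of sperm, were at least 63.8-fold, 56.4-fold and 56.0-fold lower. Fewer cells of a type and less RNA per cell cannot be told apart in such bulk samples. In the other arrays the male tract genes were low in the TORC mutant and bright in the neuronal rescue, with testis medians of 4.0 and 412. Of the 590 probe sets as a whole, 567 lay below 14 in the mutant and 548 at 50 or more in the neuronal rescue, with median signals of 3.55 in the rescue control, 3.0 in the mutant, 145 in the neuronal rescue and 82.0 in the WT control. By name, 400 of the 590 carried only a CG or CR number, and 528 were on no list used here. Over all probe sets that were not controls, 53.3% reached 14 in the TORC mutant and 45.5% reached 50 in the neuronal rescue. Here and for the sets below, the counts by name and by list membership have no share over all probe sets beside them. Those counts say nothing particular to a set.

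Paralogues of housekeeping genes were found among the 590. Of 83 probe sets for oxidative phosphorylation 20 were below 14 in the rescue control alone. In the WT control 9 of them were at 50 or more and 11 between 14 and 50. Over all probe sets the shares of these classes were 4.32% and 9.30%. COX4L had 1.7 in the rescue control and 170 in the WT control, at least 12.1-fold lower. SdhBL had 6.6 in the rescue control against 152 in the WT control, at least 10.9-fold. COX7AL had 5.2 in the rescue control against 97.2 in the WT control, at least 6.94-fold. These carry the suffix that marks a paralogue of a standard subunit. For the vacuolar ATPase 12 of 32 probe sets were below 14 in the rescue control alone. In the WT control 11 of them were between 14 and 50, a class that held 9.30% of all probe sets. The other 1 reached 50 there, and 1 of 32 is no more than the 4.32% over all probe sets. That 1 was Vha68-3, at 2.0 in the rescue control and 92.2 in the WT control. Atg8b, a paralogue of Atg8a, had 4.8 in the rescue control and 141 in the WT control, whereas Atg8a had 3826 in the rescue control against 3759.9 in the WT control. RpL10Aa and the chaperone gene Hsc70-2 had 1.3 and 10.9 in the rescue control, against 87.2 and 100.5 in the WT control.

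Digestive enzymes of the gut were lower in the rescue control. Of 28 probe sets 7 were bright on both arrays, all 7 with ratios below 0, 5 at 2-fold or more, and the median was -1.83. alphaTry, a trypsin, had 541 in the rescue control and 2347 in the WT control, 4.34-fold lower. The next trypsin, betaTry, had 539.5 in the rescue control against 1915 in the WT control, 3.55-fold lower. The Jonah protease gene Jon65Aiv, named after its value was seen, had 254 in the rescue control against 687 in the WT control, 2.71-fold lower. Another 8 of the 28 were below 14 in the rescue control and at 50 or more in the WT control. Over all probe sets with 1 symbol the share of this class was 4.32%. Jon25Biii, at 9.2 in the rescue control against 358 in the WT control, had the largest bound, at least 25.6-fold. alphaTry and betaTry were thus still bright in the rescue control, while epsilonTry, at 51.5, lay just above the brightness minimum. The TORC mutant had 2.5 for alphaTry and 1.5 for betaTry, and the neuronal rescue 1802 and 488. The lysozyme gene LysX went the other way, at 138 in the rescue control and 6.7 in the WT control, at least 9.86-fold higher. Summed over all 28 probe sets, gut signals came to 2599.6 in the rescue control and to 8962.5 in the WT control.

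Yolk protein genes, which are normally transcribed in the fat body and ovary of females, were low in the rescue control and bright on the other 3 arrays. Yp1 had 17.6 in the rescue control, 4617 in the TORC mutant, 4524 in the neuronal rescue and 3235 in the WT control. Yp2 had 14.8 in the rescue control, 2175 in the TORC mutant, 1235 in the neuronal rescue and 727 in the WT control, and both were chosen after their values were seen. Yp3, given above, was the third. The arrays that bore bright yolk genes were all labelled as male heads. Eggshell and female germ line genes were dim throughout, with 15 of 19 probe sets below 14 on both arrays and 0 at 50 or more on either. Of 14 bright probe sets of sex determination genes 0 were at 2-fold, and dsx had a log2 ratio of 0.48. The part of these tissue markers in the other gene groups was not tested.

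Flight muscle genes were higher in the rescue control. Of 6 bright probe sets 3 were 2-fold or more higher, with a median of 0.89. The thick filament gene fln had 5251 in the rescue control and 2156 in the WT control, 2.43-fold higher. The flight muscle actin gene Act88F had 6807 in the rescue control against 3116 in the WT control, 2.18-fold. Strn-Mlck was 2.41-fold higher by 1 probe set and had a log2 ratio of -0.51 by another, and TpnC41C had -0.72. In the other arrays fln had 14.2 in the TORC mutant and 359 in the neuronal rescue, so the rescue control was the brightest of the 4. Other muscle genes gave a median next to 0 over 21 bright probe sets, with 1 of the Mf probe sets as the sole one past 2-fold and Mp20 at 0.82.

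**Figure D4:**
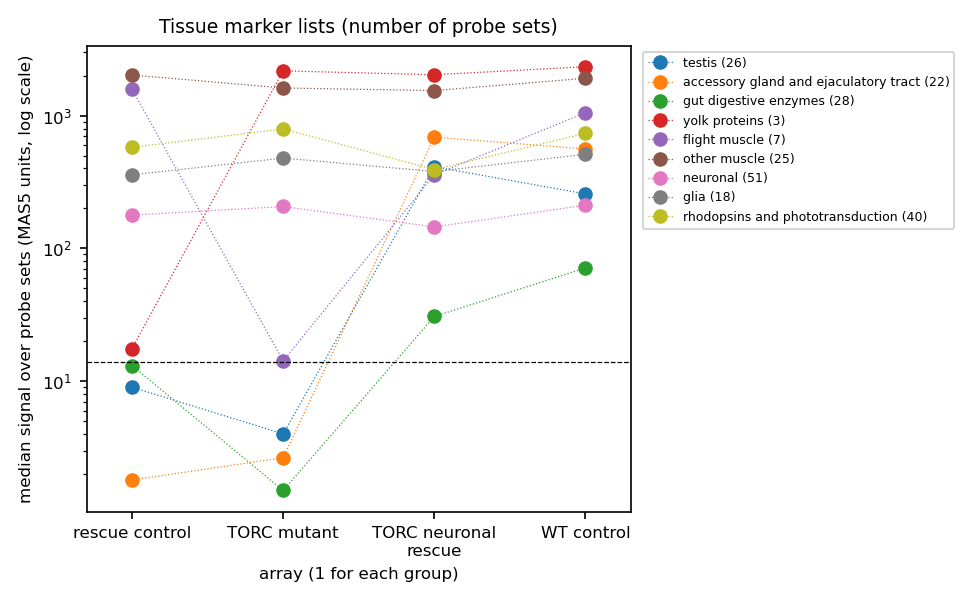
Median signal (MAS5 units, log scale) over the probe sets of tissue marker lists on each of the 4 arrays, with the number of probe sets in brackets, dotted lines as guides only and the dashed line at 14. Testis and accessory gland lists lie below 14 in the rescue control and the TORC mutant, at 9.0 and 4.0 for the testis, and yolk proteins are low in the rescue control alone, at 17.6, while the neuronal list lies between 145 and 212 on all arrays.

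The 13 probe sets below 14 in the WT control and at 50 or more in the rescue control had median signals of 168 in the rescue control, 87.0 in the TORC mutant, 100.6 in the neuronal rescue and 5.8 in the WT control. None was below 14 in the neuronal rescue, and 4 were below 14 in the mutant. The choice of this class required a low WT control, so the other arrays do not bear on it independently. CG31219 had the largest bound, with 329 in the rescue control and 4.3 in the WT control, at least 23.5-fold higher. CG30098, CG13324, CG11893 and CG10814 were at least 13.4-fold to 16.6-fold higher, and 9 of the 13 carried a CG number. Srg2 had 190.6 in the rescue control, 1.8 in the mutant, 1632 in the neuronal rescue and 5.8 in the WT control, at least 13.6-fold above the WT control. Eh, the eclosion hormone that acts at moulting, had 168 in the rescue control and 11.4 in the WT control, at least 12.0-fold. CG4650 and CG31955 were at least 10.9-fold and 8.44-fold higher, and LysX is given above.

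The sets chosen by this contrast can be described on the arrays it did not use, though those arrays share the study's handling. The 150 higher probe sets had a median signal of 513 in the rescue control, 421 in the TORC mutant, 358 in the neuronal rescue and 182 in the WT control. The 131 lower ones had 107 in the rescue control, 129 in the mutant, 149 in the neuronal rescue and 329.8 in the WT control. The gap between the rescue control and the WT control in these medians was fixed by how the sets were chosen. That choice also favours an extreme WT control, so the gap of the WT control to the other arrays is not independent of it. Of the 150, 37 were on a list and 60 carried a CG or CR number, and of the 131 these counts were 31 and 38. No share over all probe sets is given beside these counts.

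Position along the chromosomes was examined through RefSeq's gene order of Release 6, which the choice of arrays did not use. The share of bright probe sets 2-fold or more higher was between 2.06% on the X and 2.67% on arm 2R among the large arms, and the share lower was between 1.31% on the X and 3.22% on arm 3L. Probe sets below 14 in the rescue control and at 50 or more in the WT control made up 6.86% of those on arm 2L, 4.06% on 2R, 4.17% on 3L, 4.31% on 3R and 2.24% on the X, and 0 of 82 on chromosome 4. Among the 100 measured genes nearest Crtc, 50 on each side, 45 were bright on both arrays, with a median log2 ratio of 0.05 and a range from -1.28 to 1.14. By position, not by rank, CG5506 was 2-fold or more higher and Adgf-A, TrpRS-m and geko were lower. Another 9 of the 100 were below 14 in the rescue control and at 50 or more in the WT control. On arm 3L as a whole the shares were 2.18% higher, 3.22% lower and 4.17% below 14 in this way. These 9 were also below 14 in the TORC mutant. All but CG7542 reached 50 in the neuronal rescue, as most of the 590 did. Whether the neighbours differ from the rest of the arm was not tested.

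**Figure D5:**
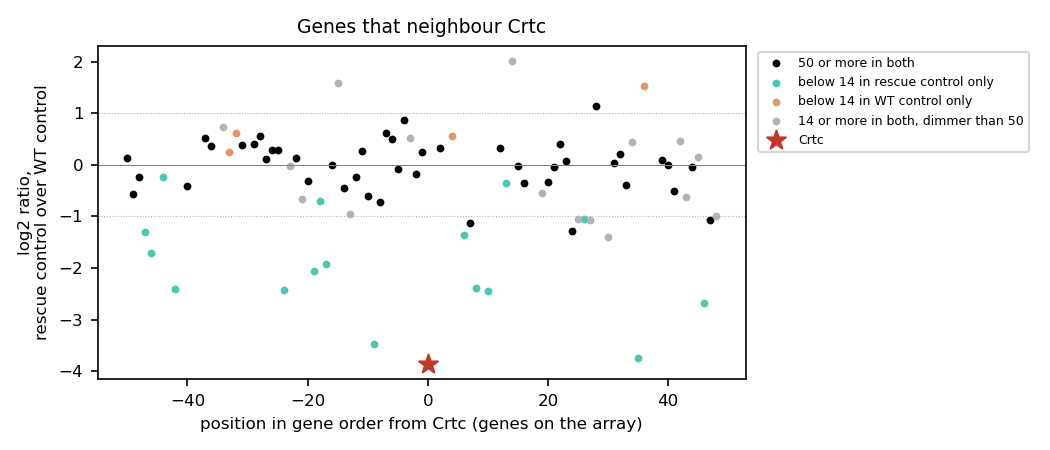
Log2 ratio of the rescue control over the WT control for measured genes on either side of Crtc, against their place in the gene order. Black points are at 50 or more on both arrays, grey points are at 14 or more on both, coloured points are below 14 on 1 array, where the ratio is a bound, and genes below 14 on both are left out. Crtc, the star, lies at -3.86, and the black points around it lie between -1.28 and 1.14.

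Genes that lay next to each other in that gene order, among measured genes, and were 2-fold apart in the same direction formed 7 pairs of higher genes and 5 runs of lower genes. The longest run was the trypsin cluster alphaTry, epsilonTry and betaTry on arm 2R. Drsl4 and Drsl5 on arm 3L formed another lower run, and CG16713 with its neighbour IM33 on arm 2L formed a higher one. These runs were named after their values were seen.

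Just inside the brightness minimum lay Sas10, with 54.4 in the rescue control and 50 in the WT control, Brd7-9, with 50 in the rescue control against 51 in the WT control, and Rtel1, with 50 in the rescue control against 58 in the WT control. Just outside it lay CG8907, with 49.9 in the rescue control and 56.9 in the WT control, CG42397, with 74 in the rescue control against 49.9 in the WT control, and Sym, with 64 in the rescue control against 49.9 in the WT control. At the lower limit, pb, with 14 in the rescue control and 14.4 in the WT control, DIP-eta, with 14 in the rescue control against 14.6 in the WT control, and CG3494, with 14 in the rescue control against 129 in the WT control, counted as measured. CG32727 and bma, with 13.9 each in the rescue control against 21.6 and 24.8 in the WT control, counted as below 14 in the rescue control. The transcript lncRNA:CR44036, with 24.9 in the rescue control and 13.9 in the WT control, counted as below 14 in the WT control.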

How the data were processed

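Affymetrix Drosophila arrays measured RNA from samples labelled as fasted male heads, 1 array for each of 4 groups taken from the sample titles. Each deposited value is the intensity of a probe set, on a linear scale, and the submitters' processing notes name MAS5, with its version not given in the sources used here. Each column had a 2% trimmed mean of 150, the mark of a global scaling by the authors. Such scaling fixes the mean and leaves the dim end free to differ between arrays. With 1 array a group no test was possible, and the number of arrays limits the precision.

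Platform annotation gave 1 gene symbol to 13646 of 18769 probe sets outside the controls, several to 402 and none to 4721. RefSeq Release 6 matched 13543 of the 13646 and 103 kept the annotation's symbol. RefSeq Release 6 was used for symbols, chromosome arms and gene order, and no coordinates are given. No sequences came with the sources used here, so none are given.

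Signals were raised to 14 and divided with Python 3.11.15, numpy 2.4.6 and pandas 2.3.3, after these steps had been tested on simulated data. The 44 gene lists held 668 entries, of which 135 had no probe set with 1 symbol and were not analysed here. Named genes were Crtc, the 15 highest and 15 lowest bright ratios, the 10 largest bounds each way, the 4 largest bright ratios and 3 largest bounds each way of each list, list members within 2-fold, and the 3 probe sets on each side of a threshold. Others are said to have been named after their values were seen. Members, lists and rules were chosen with earlier results of these data known. The 11 alternatives covered the scaling, the floor, the brightness minimum, the fold threshold and the probe sets used.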

Additional observations from a re-analysis of the deposited data

Results flagged for a closer look

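A control probe set with no gene or role named here, 1 of 100 of its kind, gave a signal of 53.8 in the rescue control, against 1.2 in the WT control. It had 6.8 in the TORC mutant and 26.6 in the neuronal rescue, and 90 of the 100 lay below 14 on all 4 arrays.

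The Bacillus transcripts added before labelling had a geometric mean of 351 in the rescue control, 76.8 in the TORC mutant, 261 in the neuronal rescue and 77.3 in the WT control.

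Probe sets without 1 gene symbol lay outside the comparison. Of 5123 of them 839 were at 50 or more on both arrays, with 37 at 2-fold or more higher in the rescue control and 18 lower, and a further 44 were below 14 in the rescue control and at 50 or more in the WT control. The most extreme were 14.4-fold higher, with 1207 in the rescue control and 83.6 in the WT control, and 12.5-fold lower, with 82.1 in the rescue control against 1026 in the WT control.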

How the results depend on the processing

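Counts are given in the order 2-fold higher, 2-fold lower, below 14 in the WT control, and below 14 in the rescue control, which were 150, 131, 13 and 590. Quantile normalization gave 155, 123, 28 and 437. Centring on the bright probe sets, a shift of 0.08 in log2 units, gave 130, 148, 13 and 614, so lower probe sets then outnumbered higher ones, and using the head lists for centring gave 179, 114, 15 and 565. A floor of 7 gave 9 and 415 for the last pair and a floor of 28 gave 42 and 732. A brightness minimum of 25 gave 205, 223, 52 and 1142, and one of 100 gave 109, 71, 10 and 234. With a threshold of 1.5-fold the higher and lower counts were 534 and 428, and with 3-fold they were 44 and 38; the bounded counts cannot fall below 3.57-fold and did not depend on this. The brightest probe set of each gene gave 145, 117, 13 and 572, and all probe sets that were not controls gave 187, 149, 13 and 634. The 208 named probe sets were recomputed under quantile normalization, both centrings and both floors. EbpIII turned from -0.05 to 0.03 with the head lists, Pepck1 came to 0 with quantile normalization, and the others kept their direction under those 5. Of 41 list medians, 4 changed sign with quantile normalization (oxidative phosphorylation, glycolysis, gluconeogenesis and mitochondrial ribosomal proteins), 4 with centring on the head lists (accessory gland, mitochondrial ribosomal proteins, other muscle and photoreceptors), 3 with centring on bright probe sets (oxidative phosphorylation, cuticle proteins and sex determination), 2 with the brightest probe set (other muscle and photoreceptors), 2 with a brightness minimum of 100 (P450 genes, 0.08, and antioxidants, -0.11), 1 with a minimum of 25 (cuticle proteins) and 0 with either floor. No paired analysis was possible because each group had 1 array. Dim signals limit what could be compared: ratios could be read for 47.5% of the probe sets with 1 symbol.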
